A study of Mus musculus with 10 samples.

Results

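The imprinted growth genes described here were 9 genes of mouse that are read from only one parental chromosome and bear on growth: *Dlk1*, *Mest*, *Peg3*, *Cdkn1c*, *Grb10*, *Plagl1*, *Ndn*, *Zim1* and *Sgce*. They were chosen by name and matched by Ensembl gene ID to 9 of the 25700 genes counted in each mouse. The counts came from bulk mRNA sequencing of whole tibialis anterior (TA) muscle of 10 male C57BL/6 mice aged 12 weeks, taken at day 6 after an intramuscular injection of cardiotoxin (CTX), a snake venom toxin that destroys muscle fibers and starts their regeneration. The 5 control mice carried Cre recombinase from the *Pax7* gene of muscle stem cells and are labelled Pax7Cre, with a wild-type genotype. The other 5 carried the same Cre and a loxP-flanked copy of the X-linked microRNA miR-501 (Pax7Cre miR-501fl/Y, labelled miR-501 -/-) and are called miR-501KO. The Cre is not inducible, so miR-501 is lost in the whole lineage from *Pax7*-expressing cells, whereas the sequenced muscle also held macrophages, vessels and connective tissue in which it was not targeted. The question put by the comparison was which genes change in regenerating muscle when miR-501 is deleted from myogenic cells.

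Genomic imprinting marks a gene by DNA methylation in the egg or the sperm, so that the embryo and often the adult use the copy of one parent. Many imprinted genes act on growth, with paternally expressed genes often promoting it and maternally expressed genes often restraining it. Several of them are high in fetal and newborn muscle, decline with maturity, and are used again by muscle stem cells and new fibers after injury. *Dlk1*, *Mest*, *Peg3*, *Plagl1*, *Ndn* and *Sgce* are known as paternally expressed, and *Cdkn1c*, *Grb10* and *Zim1* as maternally expressed in most tissues. The counts do not separate the parental alleles, so all values below are sums over both.

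The deleted microRNA and its relative miR-500-3p, which has the same seed, are printed from RefSeq (GRCm38.p6) to show the letters by which a microRNA pairs with messages. Capitals mark the seed, bases 2 to 8. The miR-501-3p sequence lies at chrX:7241270-7241291 on the minus strand.
mmu-miR-501-3p: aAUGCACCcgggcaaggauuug
mmu-miR-500-3p: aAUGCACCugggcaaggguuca
The site that pairs with this seed is GGTGCAT, searched on the sense strand of the annotated 3′ UTRs. It was found in the 3′ UTRs of 0 of the 9 imprinted growth genes. Of 13989 tested genes with an annotated 3′ UTR, 1052 (7.52%) held it at least once. Neither miR-501 itself nor its precursor is a row of the count files, so the deletion could not be checked from these counts.

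The genes lie on 5 autosomes (GRCm38, GENCODE M21), 4 of them on chromosome 7. *Zim1* (chr7:6671269-6696450, minus strand) and *Peg3* (chr7:6703892-6730431, minus strand) are neighbours separated by 7441 bases. *Ndn* (chr7:62346569-62350262, plus strand) and *Cdkn1c* (chr7:143458339-143461050, minus strand) lie farther along the same chromosome. On chromosome 6 are *Sgce* (chr6:4674350-4747207, minus strand) and *Mest* (chr6:30723547-30748465, plus strand). *Plagl1* is at chr10:13060504-13131694 on the plus strand, *Grb10* at chr11:11930508-12038683 on the minus strand and *Dlk1* at chr12:109452823-109463336 on the plus strand. All 9 are protein-coding genes. *Mest* shares 912 exonic bases with *Copg2*, which is read from the opposite strand. The sources used here do not state whether strand was used in counting, and without it reads from these bases cannot be told apart. *Copg2* had 659 to 888 counts per mouse, against 7964 to 18840 for *Mest*. An antisense gene, *Gm44732*, covers 625 exonic bases of *Cdkn1c* and is not a row of the count files.

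RefSeq start windows of 300 bases (250 before the start to 50 after it, GRCm38.p6) were matched for 7 of the 9 genes, all but *Cdkn1c* and *Sgce*. Methylation of imprinted genes falls on CpG, a C followed by a G, so the windows are described by their CpG count, which is the same on both strands. Windows are shown, with each CpG in capitals, for *Mest* and *Grb10* and for *Peg3*, which shares its start region with *Usp29*. *Mest* and *Grb10* were the pair with the highest Pearson's r over all mice, though not the highest rank correlation (rho). The windows shown are the *Mest* window at chr6:30737800-30738099 (plus strand), the *Grb10* window at chr11:12037371-12037670 (minus strand) and the *Peg3* window at chr7:6730370-6730669 (minus strand).
Mest: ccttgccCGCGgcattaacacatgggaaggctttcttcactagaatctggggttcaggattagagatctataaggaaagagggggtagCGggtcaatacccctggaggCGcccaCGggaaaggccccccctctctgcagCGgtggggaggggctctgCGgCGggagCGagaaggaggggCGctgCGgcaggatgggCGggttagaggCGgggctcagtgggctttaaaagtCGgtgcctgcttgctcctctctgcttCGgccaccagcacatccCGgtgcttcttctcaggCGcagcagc
Grb10: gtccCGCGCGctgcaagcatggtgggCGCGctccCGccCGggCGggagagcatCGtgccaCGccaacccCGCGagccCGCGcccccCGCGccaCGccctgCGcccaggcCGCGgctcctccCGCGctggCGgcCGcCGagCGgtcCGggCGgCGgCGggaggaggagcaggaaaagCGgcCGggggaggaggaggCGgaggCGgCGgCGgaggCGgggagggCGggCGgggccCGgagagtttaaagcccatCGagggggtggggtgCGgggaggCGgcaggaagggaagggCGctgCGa
Peg3: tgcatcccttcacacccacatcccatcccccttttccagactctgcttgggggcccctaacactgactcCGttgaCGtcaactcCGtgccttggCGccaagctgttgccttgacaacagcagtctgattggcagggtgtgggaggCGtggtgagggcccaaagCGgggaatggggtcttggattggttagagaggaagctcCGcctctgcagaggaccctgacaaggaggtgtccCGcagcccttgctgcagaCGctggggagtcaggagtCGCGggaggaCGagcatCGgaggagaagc
The *Grb10* window held 45 CpG, and 1.93% of the 32851 windows searched had as many. The *Mest* window held 17 (31.4% of windows had as many) and the *Peg3* window 13 (37.9%). A second *Grb10* window held 9 CpG and the most upstream *Mest* window held 8. *Plagl1* had 26, *Zim1* 20, *Ndn* 11 and *Dlk1* 9, against a median of 7 over all windows. In the *Peg3* window the start of *Peg3* is at position 251 and that of *Usp29*, an imprinted gene read the other way, at position 87, counted from 1 at the 5′ end. *Peg10* likewise starts 99 bases from the annotated start of *Sgce*, on the opposite strand. No methylation was measured, so these counts describe sequence only.

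Total counts ranged from 18609222 to 24753258 per mouse, and 6.59% to 14.0% of them were mitochondrial. Of 14410 genes with enough counts to test, 0 passed an adjusted p of 0.05 in edgeR's quasi-likelihood test (smallest adjusted p 1.00), and 151 were under 0.05 unadjusted. The tissue was checked with 46 marker genes in 7 lists, all of which were counted in every mouse. Summed markers of mature fibers (*Myh4*, *Ckm* and others) ran from 23635 to 65084 CPM (counts relative to the total of the library, TMM-scaled) in Pax7Cre and from 40232 to 50524 CPM in miR-501KO. Summed markers of regenerating fibers (*Myh3*, *Myh8*, *Actc1*, *Tnnt2*, *Myl4*) ran from 6147 to 8459 CPM and from 6037 to 8451 CPM. Macrophage markers summed to 5521 to 7247 CPM and 5596 to 6596 CPM, and those of myogenic progenitors to 570.2 to 1095 CPM and 779 to 881 CPM. Markers of fibro-adipogenic progenitors summed to 7739 to 10777 CPM and 7912 to 9960 CPM, of endothelium to 549 to 687 CPM and 547 to 696 CPM, and of pericytes and smooth muscle to 1059 to 1318 CPM and 1219 to 1439 CPM. Of the 46 markers, 0 were under an unadjusted p of 0.05 between genotypes.

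All 9 imprinted growth genes were expressed in every mouse, with 444 (*Ndn*) to 18840 (*Mest*) counts, and all 9 passed the filter on low counts. No difference between the genotypes was called: 0 of 9 passed an adjusted p of 0.05, where 0.0% of all tested genes did, and 0 of 9 were under 0.05 unadjusted, where 1.05% were (0.382% higher and 0.666% lower in miR-501KO). These shares depended on single mice: 55 genes were higher and 96 lower with all 10, but 267 and 186 without Pax7Cre mouse 2 and 228 and 242 without Pax7Cre mouse 4, in both cases with 0 at an adjusted p of 0.05 in edgeR. The values of the 2 genotypes overlapped for all 9, while 0.139% of all tested genes had groups that did not overlap. Their log2 fold changes, miR-501KO over Pax7Cre, ran from −0.079 (*Cdkn1c*) to 0.092 (*Dlk1*), with 4 above 0, 5 below 0 and a median of −0.018. Over all tested genes the median was −0.0042, with 6906 above 0 and 7504 below. The median size of the change was 0.046 for the 9 genes and 0.055 for all genes, and 69.1% of all genes had a change no larger than that of *Dlk1*. The 95% intervals of the 9 genes reached from 0.771-fold (*Plagl1*) to 1.31-fold (*Mest*), which is the range of changes that these mice leave room for. In bulk muscle, fewer cells of a type and less RNA per cell cannot be told apart.

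**Figure D1:**
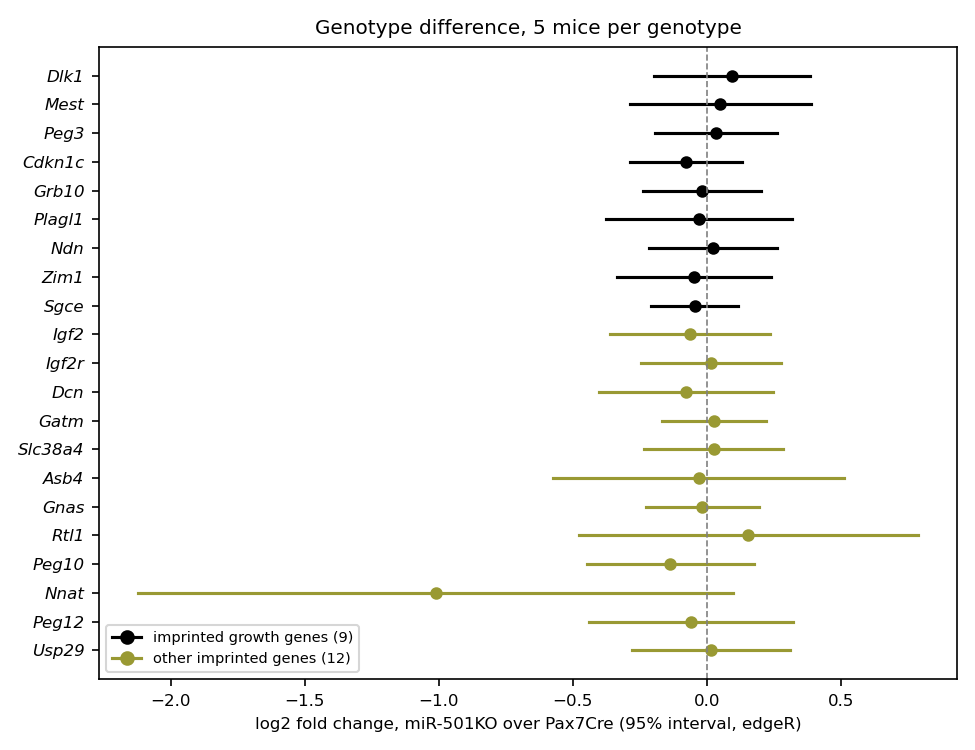
Log2 fold change of miR-501KO over Pax7Cre (x axis) with its 95% interval from edgeR for the 9 imprinted growth genes (black) and 12 other imprinted genes (olive), 5 mice per genotype. The interval of every gene shown includes 0, and the black points lie between −0.079 and 0.092.

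Among the genes that act on growth signals, *Dlk1*, a transmembrane protein with EGF-like repeats that restrains differentiation of precursor cells, was at 53.5, 46.9, 39.6, 50.3 and 66.0 CPM in Pax7Cre mice 1 to 5. In miR-501KO mice 1 to 5 it was at 54.4, 46.5, 64.3, 46.5 and 61.4 CPM. Both the lowest and the highest level of *Dlk1* were in Pax7Cre mice, and the 5 miR-501KO values lay between them. The means were 51.3 ± 9.72 CPM and 54.6 ± 8.24 CPM (SD, n = 5 each). The fitted difference was 0.092 on the log2 scale (standard error 0.134, 95% interval −0.20 to 0.38, edgeR p = 0.506, exact permutation p = 0.556). The exact permutation test was two-sided and ran over every assignment of 5 mice against 5, where the smallest p it can give is 0.00794. *Grb10*, an adaptor that binds the insulin and IGF receptors and dampens their signal, was at 464, 370.1, 505, 490.2 and 501 CPM in Pax7Cre and at 451, 462, 496, 422 and 470.5 CPM in miR-501KO. Pax7Cre mouse 2 was the lowest of the 10 for *Grb10*, and the other 9 lay between 422 and 505 CPM. Its log2 fold change was −0.018 (standard error 0.102, 95% interval −0.24 to 0.20, edgeR p = 0.866, exact permutation p = 0.937).

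*Cdkn1c*, which encodes the cyclin-dependent kinase inhibitor p57 and is switched on when myoblasts leave the cell cycle, had the lowest fold change. It was at 361, 287, 367, 307 and 327 CPM in Pax7Cre and at 321, 331, 337, 281 and 292 CPM in miR-501KO. The 2 highest values were from Pax7Cre mice and the lowest from a miR-501KO mouse, but 287 CPM in Pax7Cre mouse 2 lay below 4 of the miR-501KO values and 307 CPM in Pax7Cre mouse 4 below 3. The means, 329.9 ± 34.4 and 312 ± 24.9 CPM (SD, n = 5 each), differed by −0.079 on the log2 scale (standard error 0.0958, 95% interval −0.29 to 0.13, edgeR p = 0.427, exact permutation p = 0.389). *Ndn*, which encodes necdin, a protein that restrains proliferation, was at 19.9, 25.7, 23.7, 27.1 and 25.0 CPM in Pax7Cre. In miR-501KO it was at 20.3, 22.9, 29.6, 24.4 and 26.1 CPM, and mouse 1 was the lowest in both groups. The difference was 0.023 on the log2 scale (standard error 0.110, 95% interval −0.22 to 0.26, edgeR p = 0.837, exact permutation p = 0.881).

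The zinc finger genes *Plagl1*, *Peg3* and *Zim1* followed. *Plagl1*, a transcription factor known to act on other imprinted genes, was at 265, 264, 324, 237 and 374 CPM in Pax7Cre and at 279, 261, 379.6, 211 and 303 CPM in miR-501KO. It had the widest interval of the 9 genes, −0.38 to 0.32 around a log2 fold change of −0.030 (standard error 0.160, edgeR p = 0.853, exact permutation p = 0.841). *Peg3*, a transcription factor of muscle stem cells and other progenitors, was at 424, 445, 551, 465 and 556 CPM in Pax7Cre and at 509, 544, 517, 437 and 490.4 CPM in miR-501KO. All 5 miR-501KO values of *Peg3* lay inside the range of Pax7Cre, and the log2 fold change was 0.033 (standard error 0.106, 95% interval −0.20 to 0.26, edgeR p = 0.759, exact permutation p = 0.690). *Zim1*, the maternally expressed neighbour of *Peg3*, was at 101, 103, 134.5, 78.5 and 112 CPM in Pax7Cre and at 92.7, 103, 126, 89.8 and 100.2 CPM in miR-501KO. Its log2 fold change was −0.049 (standard error 0.133, 95% interval −0.34 to 0.24, edgeR p = 0.718, exact permutation p = 0.794). The ratio of *Peg3* to *Zim1*, both in CPM, was 4.10 to 5.93 in Pax7Cre and 4.12 to 5.49 in miR-501KO, so the relative use of these neighbours overlapped between genotypes.

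*Mest*, which encodes a hydrolase-like protein of the endoplasmic reticulum, was at 689.9, 420.2, 699.8, 677 and 722 CPM in Pax7Cre and at 704, 634, 785, 517 and 683 CPM in miR-501KO. Pax7Cre mouse 2 stood apart from the other 4 controls, and mouse 4 was the lowest of the miR-501KO group. The means were 642 ± 125 and 664 ± 98.7 CPM (SD, n = 5 each), and the fitted difference was 0.050 on the log2 scale (standard error 0.156, 95% interval −0.29 to 0.39, edgeR p = 0.754, exact permutation p = 0.706). The log2 fold change of *Mest* was −0.072 (standard error 0.114) without Pax7Cre mouse 2 and −0.017 (standard error 0.165) without miR-501KO mouse 3, so its sign rested on single mice. *Sgce*, which encodes epsilon-sarcoglycan of the membrane complex around dystrophin, was at 36.5, 30.02, 32.3, 29.8 and 32.9 CPM in Pax7Cre and at 31.4, 31.4, 34.1, 30.3 and 29.3 CPM in miR-501KO. It had the narrowest interval of the 9 genes, −0.21 to 0.12 around −0.046 (standard error 0.0753, edgeR p = 0.551, exact permutation p = 0.508), and it was the gene that varied least between mice.

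**Figure D2:**
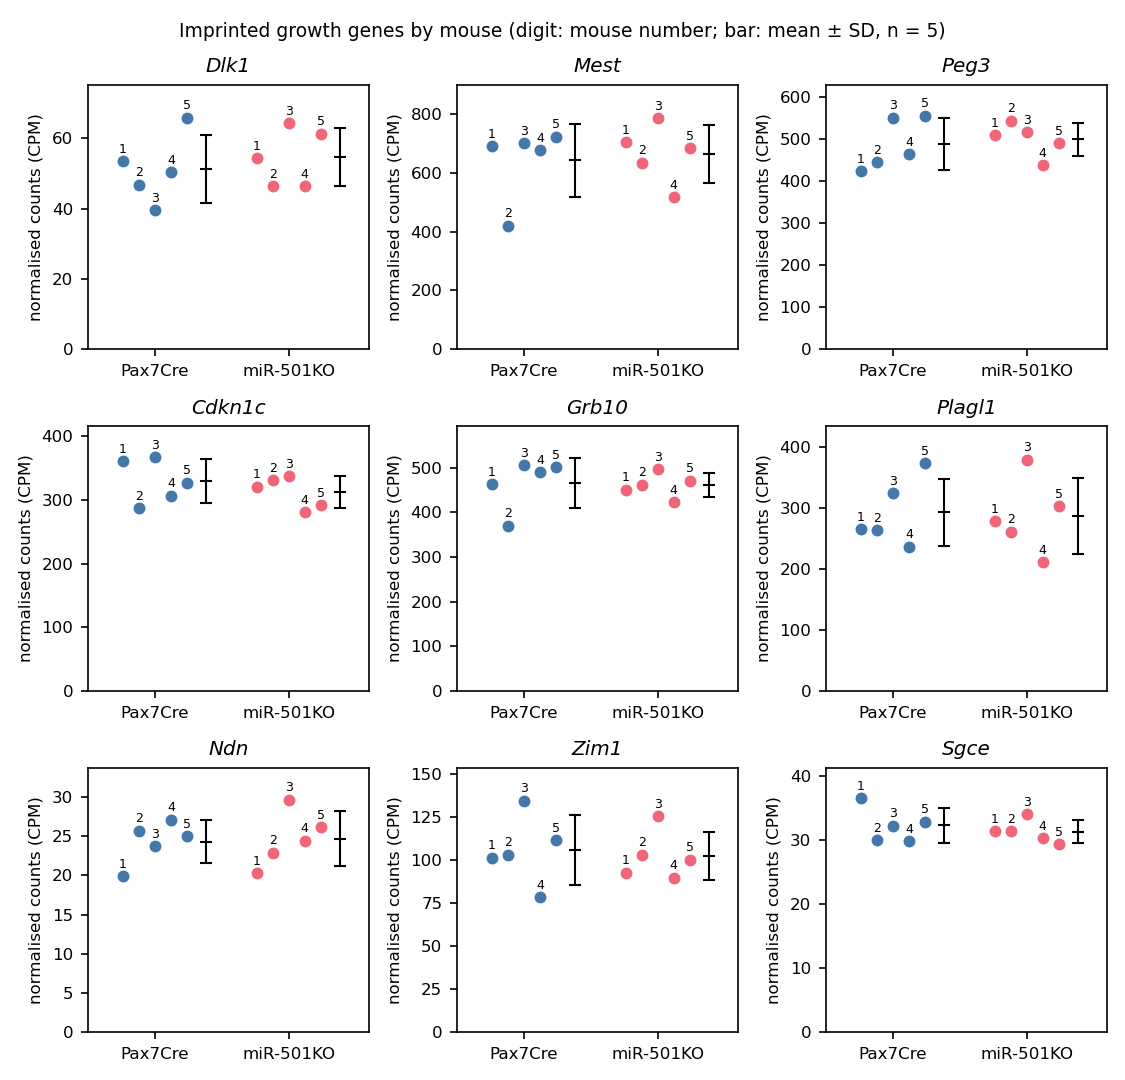
Level of each imprinted growth gene (y axis, normalised counts in CPM, starting at 0) in each mouse, with Pax7Cre in blue and miR-501KO in red; digits are mouse numbers and bars the mean ± SD of 5 mice. The 2 genotypes overlap for every gene, and Pax7Cre mouse 2 lies at 420.2 CPM for *Mest*, below the other 9 mice.

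Grouped by the parental copy they are known to use, the 6 paternally expressed genes had 4 changes above 0 and 2 below, with a median log2 fold change of 0.028. The 3 maternally expressed genes had 0 above 0 and 3 below, with a median of −0.049. No gene of either group was under an unadjusted p of 0.05, and the difference between the groups was not tested. Without a single mouse, the sign changed for *Mest*, *Peg3*, *Ndn*, *Sgce*, *Grb10*, *Plagl1* and *Zim1*, so these directions depended on which mice were included.

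Levels were compared between genes per kilobase of annotated exon. *Mest* (166 CPM per kb) and *Cdkn1c* (158 CPM per kb) were the highest, above 98.2% and 98.1% of tested genes. Their order was not fixed, and *Mest* exceeded *Cdkn1c* in 5 of 10 mice. *Grb10* (51.0 CPM per kb) came next and was above *Peg3* in 10 of 10 mice. *Peg3* and *Plagl1* were both at 37.1 CPM per kb, and *Peg3* was the higher in 4 of 10 mice. The order below them held in 10 of 10 mice for each step, from *Zim1* (12.9) through *Dlk1* (9.36) and *Ndn* (6.63) to *Sgce* (3.00 CPM per kb). *Sgce* was thus above only 38.4% of tested genes, while *Plagl1*, the fifth of the 9, was above 92.6% of them. Exons of all annotated isoforms were joined for the length, which can understate the level of a gene with many isoforms. The place of *Sgce* depended on that length. In CPM alone, *Ndn* (mean 24.3 in Pax7Cre and 24.7 in miR-501KO) was below *Sgce* (32.3 and 31.3).

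**Figure D3:**
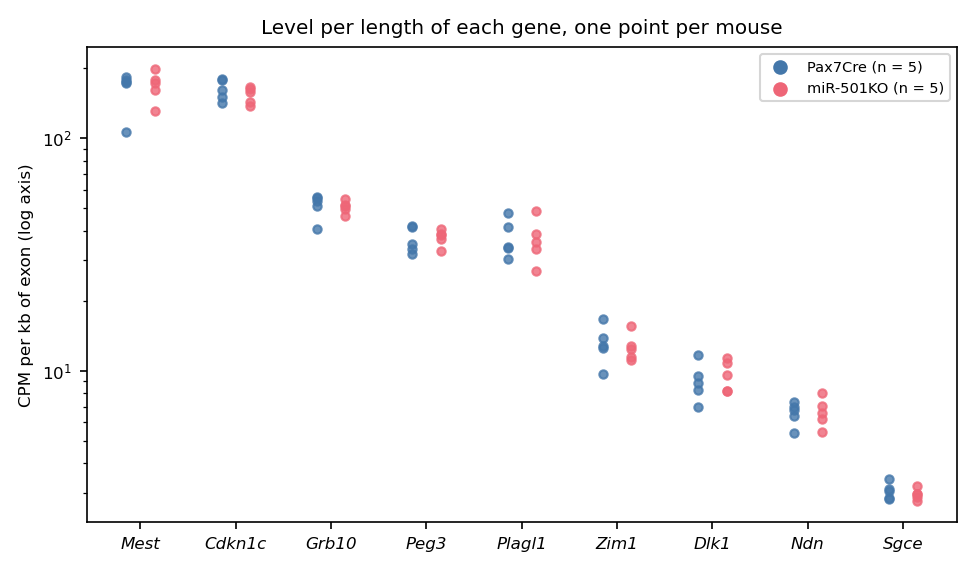
Level per length (y axis, CPM per kb of exon, log axis) of each imprinted growth gene, ordered by mean, with 1 point per mouse (Pax7Cre blue, miR-501KO red, n = 5 each). *Mest* and *Cdkn1c* lie together at the top, *Peg3* and *Plagl1* share a level, and *Sgce* is the lowest in every mouse on this scale. The order depends on the joined exon length of each gene, and in CPM alone *Ndn* was below *Sgce*.

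The spread between mice differed among the genes. The coefficient of variation ran from 5.66% (*Sgce* in miR-501KO) to 21.6% (*Plagl1* in miR-501KO) and was lower in miR-501KO than in Pax7Cre for 7 of 9 genes, all but *Plagl1* and *Ndn*. Over all 14410 tested genes it was lower in miR-501KO for 79.5%, so the count among the 9 genes was near that of genes at large. Set beside the 500 tested genes closest in level, the within-genotype SD of log2 CPM was at the percentile 87.2 for *Dlk1*, 82.2 for *Zim1*, 80.6 for *Plagl1*, 74.6 for *Mest* and 71.6 for *Ndn*. The other 4 genes were steadier than most genes of their level, at 28.8 for *Peg3*, 26.2 for *Grb10*, 24.6 for *Sgce* and 23.4 for *Cdkn1c*. The highest mouse was 1.87 times the lowest for *Mest* and 1.80 times for *Plagl1*, against 1.25 times for *Sgce*.

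The 9 genes were ranked over the 10 mice. miR-501KO mouse 3 was among the 3 highest for 8 of the 9 genes (and for 23.3% of all tested genes), Pax7Cre mouse 5 for 7 (28.5%) and Pax7Cre mouse 3 for 5 (34.6%). miR-501KO mouse 4 was among the 3 lowest for 7 genes (27.6% of all tested genes), Pax7Cre mouse 2 for 5 (37.8%) and miR-501KO mouse 2 for 4 (26.1%). Whether these counts differ from those of genes at large was not tested. The summed markers of regenerating fibers were lowest in miR-501KO mouse 4 (6037 CPM) and Pax7Cre mouse 2 (6147 CPM) and highest in Pax7Cre mouse 5 (8459 CPM) and miR-501KO mouse 3 (8451 CPM). They lay between these in Pax7Cre mouse 3 (7621 CPM) and miR-501KO mouse 2 (7648 CPM). By the mean log2 CPM of the same 5 markers, relative to the mean over the 10 mice, the order differed at the top. Pax7Cre mouse 3 was then the highest (0.15), ahead of Pax7Cre mouse 5 (0.13), miR-501KO mouse 1 (0.097) and miR-501KO mouse 3 (0.091), while Pax7Cre mouse 2 (−0.34) and miR-501KO mouse 4 (−0.18) were again the lowest. Summed mature fiber markers were highest in Pax7Cre mouse 2 (65084 CPM) and miR-501KO mouse 4 (50524 CPM). These 2 mice also had the highest mitochondrial shares of counts (14.0% and 12.7%, against 6.59% to 10.8% in the other 8) and the lowest TMM factors (0.884 and 0.942, against 1.00 to 1.13). The part of the fiber makeup, the mitochondrial share or the scaling in the levels of the imprinted genes was not tested.

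Correlations over the 10 mice were computed for 36 pairs of imprinted growth genes and 63 pairs of a gene with a marker list (its mean log2 CPM), on log2(CPM + 0.5). Of the 36 pairs of genes, 32 had a Pearson's r above 0, with a median of 0.42. The 36 pairs share the same genes and mice, and the share above 0 among pairs of genes at large was not computed. None of the 99 relations passed an adjusted p of 0.05 in the permutation test (Benjamini-Hochberg over all 99, smallest 0.062). The highest was between *Mest* and *Grb10*, with r = 0.93 (permutation p = 0.0014, adjusted 0.062) and rho = 0.70 (permutation p = 0.031, adjusted 0.32). It was 0.79 without Pax7Cre mouse 2 (exact permutation p = 0.013, adjusted 0.19). Without both Pax7Cre mouse 2 and miR-501KO mouse 4, which also narrows the range of levels, r was 0.48 (exact permutation p = 0.24), so the height of r rested on those 2 mice. *Mest* and *Grb10* likewise ran with the regenerating fiber markers (r = 0.93 and 0.90, rho = 0.81 and 0.71, permutation p = 0.0019 and 0.0017, adjusted 0.062 for both), and without the same 2 mice r was 0.37 and 0.38.

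Further relations, none of which passed the correction, were selected without a fixed rule. They are given with and without the 2 mice farthest from the median of the marker list or, for 2 genes, of the first named. Relations left out of that selection included *Cdkn1c* with the regenerating fiber markers (r = 0.69, permutation p = 0.024) and with *Mest* (r = 0.65, permutation p = 0.037). Without Pax7Cre mouse 2 and miR-501KO mouse 4 these fell to r = 0.34 and 0.18. *Peg3* and the regenerating fiber markers had r = 0.77 (permutation p = 0.0044, adjusted 0.096) and rho = 0.85 (permutation p = 0.0030, adjusted 0.15), and r = 0.88 without Pax7Cre mouse 2 and miR-501KO mouse 4. *Cdkn1c* and *Sgce* had r = 0.80 (permutation p = 0.0048, adjusted 0.096) and rho = 0.77 (permutation p = 0.013, adjusted 0.32), and r = 0.92 without Pax7Cre mouse 3 and miR-501KO mouse 4. The zinc finger genes *Plagl1* and *Zim1* had r = 0.77 (permutation p = 0.0088, adjusted 0.14) and rho = 0.73 (permutation p = 0.020, adjusted 0.32), and r = 0.74 without Pax7Cre mouse 5 and miR-501KO mouse 3. *Mest* and *Plagl1* had r = 0.59 (permutation p = 0.069, adjusted 0.40) and rho = 0.85 (permutation p = 0.0026, adjusted 0.15), and r = 0.77 without Pax7Cre mouse 2 and miR-501KO mouse 4. Negative relations were seen as well, and the lowest r of the 99 was that of *Grb10* with the mature fiber markers, at −0.72 (permutation p = 0.028, adjusted 0.35) with rho = −0.52 (permutation p = 0.13, adjusted 0.43). *Mest* and the same markers had r = −0.65 (permutation p = 0.059, adjusted 0.39) and rho = −0.33 (permutation p = 0.35, adjusted 0.73). Without Pax7Cre mice 2 and 4 these were weaker, with r = −0.49 for *Grb10* and −0.51 for *Mest*. *Zim1* and the myogenic progenitor markers had r = −0.64 (permutation p = 0.045, adjusted 0.37) and rho = −0.68 (permutation p = 0.035, adjusted 0.32), and r = −0.77 without Pax7Cre mice 2 and 4. *Cdkn1c* and the mature fiber markers had r = −0.46 (permutation p = 0.18, adjusted 0.53) and rho = −0.62 (permutation p = 0.060, adjusted 0.32). Their r was −0.90 without Pax7Cre mice 2 and 4, but −0.28 without Pax7Cre mouse 2 alone (exact permutation p = 0.47). The neighbours *Peg3* and *Zim1*, which use opposite parental copies, had r = 0.57 (permutation p = 0.091, adjusted 0.42) and rho = 0.61 (permutation p = 0.068, adjusted 0.32), and r = 0.60 without Pax7Cre mouse 1 and miR-501KO mouse 4. *Ndn* had an r of −0.36 with *Cdkn1c* and −0.35 with *Sgce*, and at most 0.30 with any of the other 8 genes. With each measure centred on the mean of its genotype, 3 of the 99 relations passed the correction, namely those among *Mest*, *Grb10* and the regenerating fiber markers. Their permutation p ran from 0.00052 to 0.0015 (adjusted 0.039 to 0.0495). The centred values were permuted over all 10 mice regardless of genotype, which can make these p-values too small. Without Pax7Cre mouse 2 and miR-501KO mouse 4, the uncentred r of the same 3 relations was 0.48, 0.37 and 0.38.

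**Figure D4:**
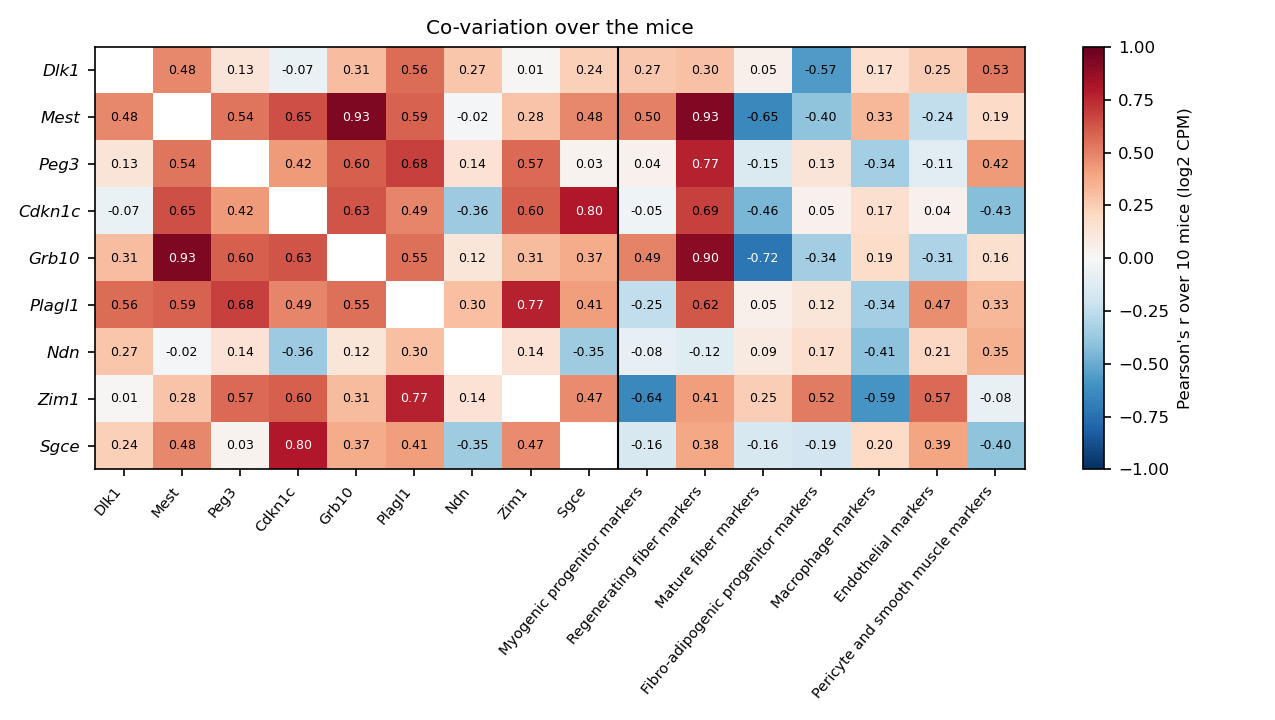
Pearson's r of log2 CPM over the 10 mice between the 9 imprinted growth genes (left block, also rows) and between each gene and the mean log2 CPM of 7 cell type marker lists (right block); red is positive, blue negative, and the cells print r. The *Mest* to *Grb10* cell (0.93) is the highest of the gene pairs, and the *Ndn* row runs from −0.41 to 0.35.

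**Figure D5:**
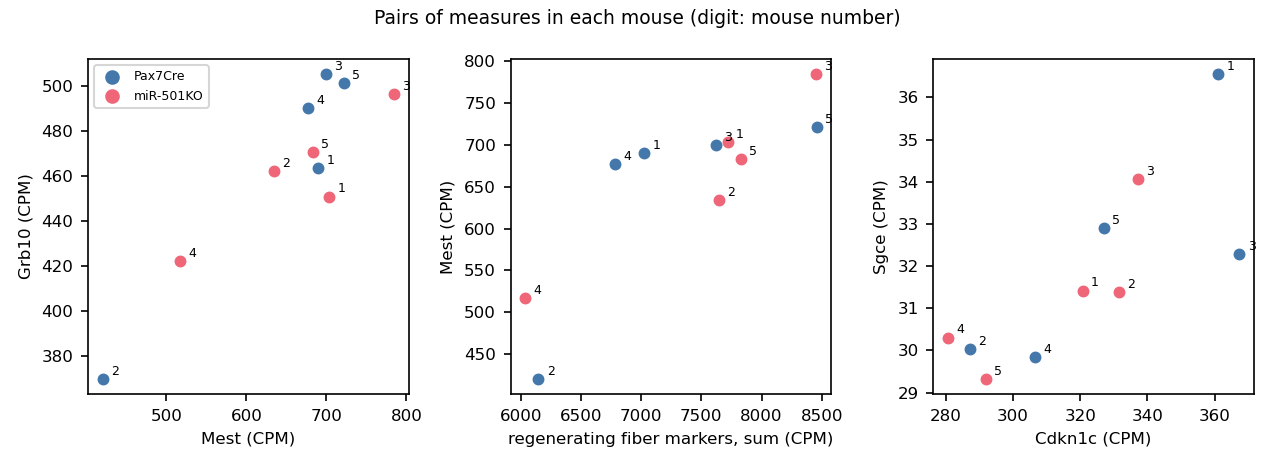
Pairs of measures with 1 point per mouse (Pax7Cre blue, miR-501KO red, digits are mouse numbers): *Grb10* against *Mest*, *Mest* against the summed regenerating fiber markers, and *Sgce* against *Cdkn1c*, all in CPM on axes that do not start at 0. In the first 2 panels, Pax7Cre mouse 2 and miR-501KO mouse 4 lie apart from the other 8 mice at the low end of *Mest*, while in the last panel the mice are spread along the whole range.

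Among all tested genes, those closest to each imprinted gene over the 10 mice were looked up by Pearson's r as a description. *Col11a1*, a fibrillar collagen chain, was the closest to both *Mest* (r = 0.97) and *Grb10* (r = 0.98), followed by *Asns* and *Arhgef26* for *Mest* and by the collagen-modifying enzyme gene *P3h1* and *Wdr82* for *Grb10*. *Cdkn1c* was closest to *Ogn* (0.96), a small proteoglycan gene, then *Tmem29* and *Vkorc1*. *Dlk1* was closest to *Grik3* (0.95), *Sh2d5* and *Zw10*, and *Peg3* to *Gm38394* (0.91), *Rgl1* and *Amer1*. *Plagl1* was closest to *Cd38* (0.92), *Nrk* and *Cbx6*, and *Zim1* to *Krt18* (0.92), *Mfng* and *Brix1*. *Ndn* was closest to *Slc35e1* (0.92), *Sart1* and *Lrrn2*, and *Sgce* to *Chil3* (0.89), *Ecscr* and *Tmem33*. Over 10 mice an r above 0.5 was common, held by 5.66% (*Plagl1*) to 19.3% (*Grb10*) of all tested genes.

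A list of 16 other imprinted genes was examined in the same fit. Of these, 14 were rows of the files and 12 had enough counts, of which 5 had changes above 0 and 7 below, with a median log2 fold change of −0.025 and 0 under an unadjusted p of 0.05 in either direction. *Igf2*, the imprinted growth factor of fetal and regenerating muscle, was at 1359 ± 177 CPM in Pax7Cre and 1302 ± 219 CPM in miR-501KO (SD, n = 5 each). *Nnat*, a small membrane protein gene, had the lowest fold change (−1.01, standard error 0.513, 95% interval −2.12 to 0.098, edgeR p = 0.0705, exact permutation p = 0.198), on 6 to 54 counts per mouse. Its call depended on the test, with an unadjusted p of 0.048 in DESeq2 (adjusted p = 1.00) and 0.00086 in edgeR's likelihood ratio test (adjusted p = 0.33). *Rtl1*, a retrotransposon-derived gene beside *Dlk1*, had the highest (0.15, standard error 0.292, edgeR p = 0.607, exact permutation p = 0.698).

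Of 49 genes beside the 9 imprinted genes on their chromosomes, 42 were rows of the files and 35 were tested, with 14 changes above 0, 21 below, a median of −0.048 and 0 under an unadjusted p of 0.05. *Dio3*, the thyroid hormone deiodinase gene in the imprinted region of *Dlk1*, had the lowest fold change at −0.49 (edgeR p = 0.122, exact permutation p = 0.230), and *Rtl1* again the highest. *Usp29*, whose start lies in the *Peg3* window, had 0.015 (standard error 0.136), *Peg10* at the start of *Sgce* had −0.14 (standard error 0.144), and *Copg2*, which overlaps *Mest*, had −0.060 (standard error 0.0652).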

How the data were processed

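mRNA was read from TA muscle of 5 Pax7Cre and 5 miR-501KO mice (TruSeq Stranded mRNA kit, NovaSeq, single-end reads). The authors aligned reads with STAR and made counts per gene with featureCounts on GRCm38.p5; R 3.5.1 is also named in the submitters' processing notes, and the strand and multi-mapping settings are not given in the sources used here. The deposited values are raw counts, 1 file per mouse. Of 25700 gene IDs, 25587 were named through GENCODE M21.

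Counts were tested with edgeR 4.0.16 (R 4.3.3; TMM, filterByExpr with a minimum of 10 counts, quasi-likelihood test, Benjamini-Hochberg over 14410 genes). Single genes were also compared by an exact two-sided permutation test on log2(CPM + 0.5), and correlations by a permutation test with 100000 resamples (exact with mice left out). Fold changes are miR-501KO over Pax7Cre. The labels number the mice separately, so each mouse is 1 replicate; no 2 mice of a group agreed within sampling noise. DESeq2 1.42.0, other scalings, filters and tests, a replicate block and leaving out each mouse were alternatives. Totals of 18609222 to 24753258 counts set the counting error.

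The named genes were all 9 imprinted genes. From the lists of other imprinted and neighbouring genes, every gene under an unadjusted p of 0.05 was named, or otherwise the one with the largest change in each direction, with *Igf2* added for its level after its values were seen, plus genes that overlap an imprinted gene or share its start region. For each imprinted gene the 3 with the highest r were named. The genes and lists were chosen with earlier results of these data known.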

Additional observations from a re-analysis of the deposited data

Results flagged for a closer look

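In 32 sets of 5 mice (the 9 imprinted genes and 7 marker lists in each genotype), the mouse at either end was compared with its nearest neighbour relative to the range of the group, and 2 sets held a mouse that stood apart; chance flags about 1 in 20 groups. *Mest* was at 420.2 CPM in Pax7Cre mouse 2, where the next control was at 677 CPM and the highest at 722 CPM, a gap of 0.852 of the range. The same mouse had the highest summed mature fiber markers (65084 CPM) and, of the controls, the lowest summed regenerating fiber markers (6147 CPM), together with the highest mitochondrial share of counts (14.0%) and the lowest TMM factor (0.884) of the 10 mice. The part of these in the level of *Mest* was not tested. Summed pericyte and smooth muscle markers were at 1439 CPM in miR-501KO mouse 1, against 1219 to 1272 CPM in the other 4 miR-501KO mice, a gap of 0.760 of the range.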

How the results depend on the processing

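The 9 imprinted genes were refitted under 18 alternatives, 162 fits in all, of which 0 were under an unadjusted p of 0.05 (smallest 0.132) and none had a log2 fold change larger in size than 0.20 (*Dlk1* without Pax7Cre mouse 5). Other scalings, filters, tests and the replicate block changed the sign of none of the 9. Leaving out 1 mouse turned the sign in 16 fits: the log2 fold change ran from −0.072 to 0.13 for *Mest*, −0.014 to 0.084 for *Peg3*, −0.052 to 0.087 for *Ndn*, −0.078 to 0.0021 for *Sgce*, −0.092 to 0.014 for *Grb10*, −0.15 to 0.074 for *Plagl1* and −0.14 to 0.053 for *Zim1*, whereas *Dlk1* (0.013 to 0.20) and *Cdkn1c* (−0.13 to −0.037) kept theirs. Over all genes, 55 were higher and 96 lower at an unadjusted p under 0.05. The higher count was 153 and the lower 159 without a filter, the higher 36 with at least 10 counts in every mouse, and the higher 123 with edgeR's likelihood ratio test, which alone passed genes at an adjusted p under 0.05 (19, none of the 9). Leaving out 1 mouse gave 39 to 267 higher and 59 to 242 lower genes, with 267 and 186 without Pax7Cre mouse 2, 228 and 242 without Pax7Cre mouse 4, and 59 lower without miR-501KO mouse 1. With the mouse number as a replicate block, the higher count was 87. The labels do not say that equal numbers are pairs, and whether they are was not tested. Same-number correlations were 0.34, −0.15, 0.16, −0.30 and 0.20, and 3 of the 5 numbers correlated best with their own. Of the other imprinted genes 1, *Nnat*, was under 0.05 with DESeq2, the likelihood ratio test and the replicate block (log2 fold change −0.93, edgeR adjusted p = 1.00, unadjusted 0.0090), and without Pax7Cre mouse 5 or miR-501KO mouse 2 (0 to 1 gene over the mice left out). Of the neighbouring genes 0 to 2 were, *Klf14* and *Dio3* without Pax7Cre mouse 2, *Casd1* and *Tssc4* without Pax7Cre mouse 4, *Klf14* without miR-501KO mouse 3 and *Pdk4* without miR-501KO mouse 4. Centring on genotype passed 1 pair of imprinted genes and 2 pairs of a gene with a marker list. The centred values were permuted over all mice regardless of genotype, which can make those p-values too small. Why these counts moved was not tested. At 5 mice per genotype, the intervals of the 9 genes leave room for changes of 0.771-fold to 1.31-fold.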
